A study of Mus musculus with 8 samples.

Results

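The regions described here are the 506 Klf6 peaks that were called in both samples of oligodendrocyte progenitors (OLP) and in neither sample of immature oligodendrocytes (iOL). They were chosen by measured values, namely the peak calls themselves: a peak of OLP replicate A on chromosomes 1 to 19 was kept when OLP replicate B had a peak at most 500 bp away and iOL replicates A and B had none within that gap, with no filter on tags or on the false discovery rate (FDR). The 506 were 4.69% of the 10781 OLP A peaks on these chromosomes, and this share is the background against which counts over all OLP A peaks can be read. They matched 494 different OLP B peaks, because 11 OLP B peaks lay near more than 1 OLP A peak. Chromatin immunoprecipitation with an anti-Klf6 antibody and sequencing (ChIP-seq) was performed in primary C57BL/6 mouse cells, with 2 replicates (A and B) of each stage and 1 input per ChIP sample. OLP were grown in Sato medium with PDGF-AA at 10 ng/ml and bFGF at 20 ng/ml, and iOL were OLP that had been exposed to triiodothyronine (T3) at 40 ng/ml for 18 h. No genotype other than the strain was given for either stage. A peak is a stretch of the genome where more sequenced fragments (tags) piled up in the ChIP sample than in input, so the lists hold no expression values and the cell types could not be checked against markers.

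Klf6 is a zinc finger transcription factor of the Krüppel-like family, whose members bind GC-rich DNA through CACCC and GC boxes. In the oligodendrocyte lineage, cycling progenitors leave the cell cycle, become immature oligodendrocytes and finally make myelin, and thyroid hormone promotes that step. Much of the mouse genome consists of copies of mobile elements (LINEs, SINEs and retroviral elements) and of duplicated gene clusters, and a short read from such sequence can align to several places.

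The sequences of the members themselves are shown first because 98.2% of them (497 of 506, 95% confidence interval 96.7 to 99.1) were built of sequence that occurs elsewhere in the genome. A region was counted as repeated when more than 50% of its 32-base stretches had a second occurrence somewhere in the genome, on either strand. The peaks below are those with the highest support in both OLP samples among members with a gene listed, in mm9 coordinates on the plus strand. Capitals mark every base that lies within a 32-base stretch also found inside a peak of iOL A or iOL B at another position.
Vmn1r121 peak, chr7:21897521-21897741: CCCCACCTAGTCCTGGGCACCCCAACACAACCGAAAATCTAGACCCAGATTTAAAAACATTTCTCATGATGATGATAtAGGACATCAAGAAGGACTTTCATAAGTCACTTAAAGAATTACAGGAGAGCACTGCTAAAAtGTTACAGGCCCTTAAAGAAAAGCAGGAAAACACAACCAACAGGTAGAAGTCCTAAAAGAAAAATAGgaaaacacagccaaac
Fmo4 peak, chr1:164755000-164755194: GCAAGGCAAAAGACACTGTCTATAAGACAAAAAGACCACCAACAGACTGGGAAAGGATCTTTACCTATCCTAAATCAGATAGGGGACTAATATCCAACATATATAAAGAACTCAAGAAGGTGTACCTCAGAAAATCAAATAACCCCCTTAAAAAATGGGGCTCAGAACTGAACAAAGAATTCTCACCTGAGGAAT
Ear2 peak, chr14:44643609-44643821: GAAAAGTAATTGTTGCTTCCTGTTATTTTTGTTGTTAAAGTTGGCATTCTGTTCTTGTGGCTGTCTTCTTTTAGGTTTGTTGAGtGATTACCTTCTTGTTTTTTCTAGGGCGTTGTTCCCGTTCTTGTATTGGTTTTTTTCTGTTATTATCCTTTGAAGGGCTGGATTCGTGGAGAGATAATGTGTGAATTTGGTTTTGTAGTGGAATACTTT
Pla2g4a peak, chr1:151846355-151846459: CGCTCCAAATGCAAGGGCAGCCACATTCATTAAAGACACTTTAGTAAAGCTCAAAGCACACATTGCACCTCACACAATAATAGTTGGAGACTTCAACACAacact
Neat1 peak, chr19:5854365-5854447: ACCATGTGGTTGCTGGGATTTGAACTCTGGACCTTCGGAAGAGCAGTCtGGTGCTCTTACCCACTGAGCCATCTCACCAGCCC
Nlrp5 peak, chr7:24165015-24165184: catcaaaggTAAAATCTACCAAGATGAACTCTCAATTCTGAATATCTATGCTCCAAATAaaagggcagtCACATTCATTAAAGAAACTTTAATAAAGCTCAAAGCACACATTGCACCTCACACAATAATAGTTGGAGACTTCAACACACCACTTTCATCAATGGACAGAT
Olfr1305 peak, chr2:111728297-111728404: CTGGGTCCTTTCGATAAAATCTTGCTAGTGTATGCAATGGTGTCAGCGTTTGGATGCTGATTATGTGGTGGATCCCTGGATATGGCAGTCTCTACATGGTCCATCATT
Vmn1r168 peak, chr7:24284881-24284976: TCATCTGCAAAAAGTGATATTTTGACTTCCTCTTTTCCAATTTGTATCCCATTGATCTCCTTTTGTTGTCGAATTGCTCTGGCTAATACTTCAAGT
Of the 1191 bases of these 8 peaks 1147 (96.3%) are capitals, although by the rule no iOL peak lay within 500 bp of any of them. Any 1 such stretch over a base puts it in capitals, so this share can exceed the share of stretches found in iOL peaks. By stretches the 8 peaks ran from 38.46% for Neat1, where 82 of 83 bases are capitals, to 100% for Olfr1305 and Vmn1r168. The Vmn1r121 peak had 57.89%. Over all 506 members, 418 (82.6%, 79.1 to 85.7) had more than 50% of their 32-base stretches inside iOL peaks elsewhere, 146 (28.9%) had every stretch there and 35 had none. Of the OLP A peaks found in no other sample, 50.8% (49.5 to 52.1) had more than 50% of their stretches in iOL peaks.

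The peaks listed to Pla2g4a and Nlrp5, on different chromosomes, had a run of 56 bases in common. It is shown here because it is the longest that any 2 of the 8 peaks share.
Run shared by the Pla2g4a and Nlrp5 peaks: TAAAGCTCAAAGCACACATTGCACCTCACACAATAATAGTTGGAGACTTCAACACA
It occurred 13 times in the genome. Whole copies of it lay in 3 of the 506 members, and in 10 peaks of OLP A, 10 of OLP B, 9 of iOL A and 3 of iOL B on all chromosomes. No other pair of the 8 peaks had a run of more than 10 bases in common.

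For contrast, only 6 of the 506 members held no repeated 32-base stretch at all. These 2 carry a gene and were chosen after their values were seen, the first also because it lies close to a start site. Neither has a base in capitals, since no 32-base stretch of either was found in an iOL peak.
Padi4 peak, chr4:140329502-140329665: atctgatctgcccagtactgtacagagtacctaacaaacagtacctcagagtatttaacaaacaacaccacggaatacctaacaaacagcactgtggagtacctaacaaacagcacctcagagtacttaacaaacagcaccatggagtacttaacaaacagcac
Tex14 peak, chr11:87236786-87236929: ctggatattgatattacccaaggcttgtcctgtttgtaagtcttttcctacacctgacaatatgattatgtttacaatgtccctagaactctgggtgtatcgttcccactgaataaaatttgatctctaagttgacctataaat
The Padi4 peak was made of imperfect copies of a short unit in tandem, and the letters AACAAACAG occurred in it 5 times.

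Of the 10781 OLP A peaks, 5614 (52.1%) had no peak within 500 bp in any other sample and 1672 (15.5%) had one in all 3 others. The peaks shared with OLP B alone (506) were fewer than those shared with iOL A alone (1037, 9.62%) and close in number to those shared with iOL B alone (460, 4.27%). A further 510 were shared with OLP B and iOL A, and 275 with OLP B and iOL B. The mirror image of the members, iOL A peaks with an iOL B peak and no OLP peak, numbered 350 of 8912 (3.93%). The whole lists held 12451 peaks in OLP A, 7827 in OLP B, 10225 in iOL A and 5777 in iOL B, each with 105081 to 152149 tags in peaks. The smallest peak held 7 tags in both A samples, but 9 in OLP B and 10 in iOL B. The labels give both stages the replicate letters A and B without saying what they share, and OLP A had a partner more often in iOL A (36.4% of its peaks) than in OLP B (27.5%), while OLP B had one more often in OLP A (40.9%) than in iOL B (32%). Whether the letter marks a batch was not tested. The calls were therefore not made at 1 common depth, and the part of depth in the absence of iOL peaks was not tested.

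**Figure D1:**
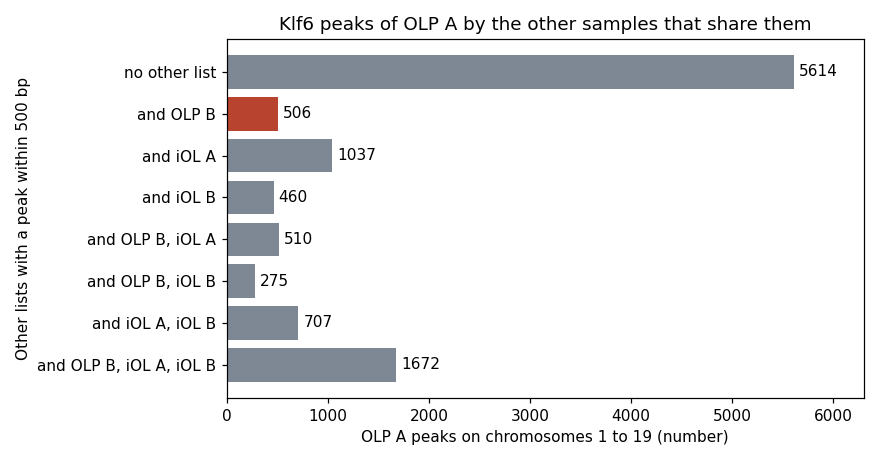
Number of OLP A peaks on chromosomes 1 to 19 by which of the other 3 samples have a peak within 500 bp, with the count at the end of each bar. The 506 members (red) are fewer than the 1037 shared with iOL A alone, and the bar of 5614 peaks with no partner is the longest.

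The members were small peaks. In OLP A they held 7 to 51 tags with a median of 8, and 156 of 506 (30.8%) sat at the floor of 7 tags. In OLP B the matched peaks held 9 to 221 tags with a median of 13. The MACS score, which is 10 times the negative log10 of the peak caller's p-value, had a median of 58.7 (range 40.4 to 150.1) in OLP A and of 53.2 (40.1 to 209.4) in OLP B. Fold enrichment over the background had a median of 16.4 in OLP A and 10.1 in OLP B. These values chose the members and are given as a description. In 4 members the score reached 100 in both samples, and in 269 (53.2%) it was under 50 in at least 1 of them. For comparison, OLP A peaks found in all 4 samples had a median of 13 tags and a score of 100.3, and OLP A peaks found in no other sample had 7 tags and a score of 49.5.

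**Figure D2:**
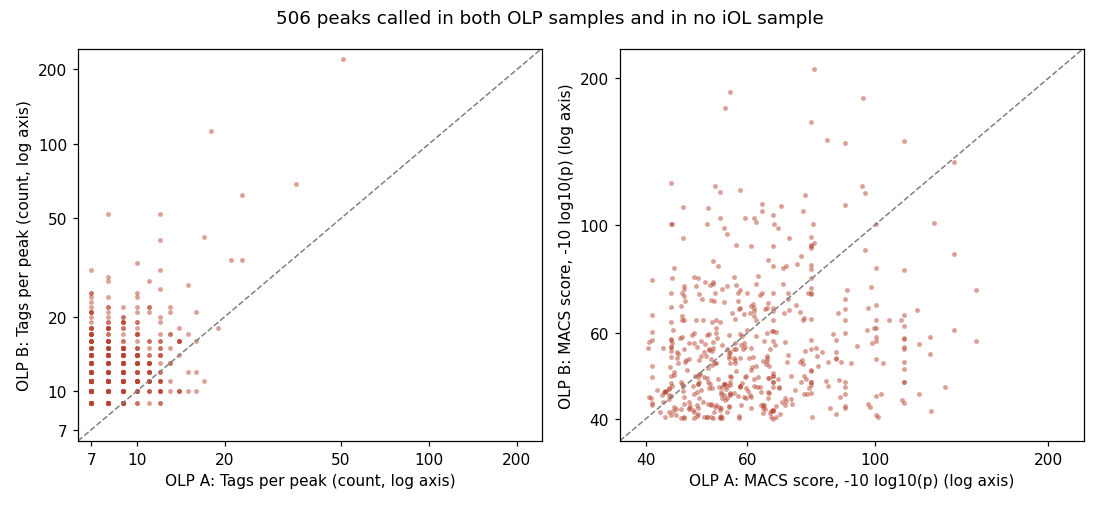
Tags (left) and MACS score (right) of each member in OLP A (x axis) and in its matched OLP B peak (y axis), both on log axes, with the dashed line marking equal values. Tags were higher in OLP B for 455 of 506 members, whereas the scores spread on both sides of the line, with 205 higher in OLP B.

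The height of a member in OLP A said little about its height in OLP B. Over the 506 members Spearman's rho between OLP A and OLP B was 0.18 for the score and 0.18 for tags, a description only, since all points come from the same pair of libraries and both axes are cut off at the calling limits. Tags were higher in OLP B in 455 members (89.9%), while fold enrichment was higher in OLP B in 61 (12.1%). The member with the most tags, chr1:85247159-85247754 inside the uncharacterised gene C130026I21Rik, had 51 tags in OLP A and 221 in OLP B, at fold enrichments of only 5.06 and 4.79. Another broad member lay over an exon of Sprr2a1, which encodes a small proline-rich protein of cornified epithelium and sits in a cluster of near-identical genes. It had 35 tags in OLP A and 69 in OLP B at fold enrichments of 4.29 and 4.15. These broad, many-tag members lay in duplicated sequence with few copies, as the median 32-base stretch occurred 6 times in the genome for C130026I21Rik and 3 times for Sprr2a1.

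The 5 members with the largest smaller-of-2 score were all without a listed gene. The first, chr2:99092409-99092486, had 10 tags and a score of 137.2 in OLP A and 19 tags and a score of 134.5 in OLP B. The second, chr15:56089796-56089884, scored 112.3 in OLP A and 148.9 in OLP B with 10 and 24 tags. The third, chr5:4407514-4407613, scored 126.5 and 101.1 with 13 and 17 tags. All 3 scored above the medians of the members in both samples, with few tags at a high fold enrichment of 13.8 to 26.5. The remaining 2, chr1:151313817-151313905 and chr13:50993330-50993511, had smaller scores of 100.3 and 96.2. In each of the 5, at least 80% of the 32-base stretches lay in iOL peaks elsewhere, between 80.9% and 100%.

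At the limit of the rule, the members farthest from their OLP B peak lay 483, 481 and 478 bp from it, each with 7 tags in OLP A and scores of 43.3, 46.1 and 59.3. The first OLP A peaks left out because OLP B was too far lay 501, 513 and 534 bp away, with 8, 8 and 7 tags and scores of 55.0, 49.4 and 45.4. On the iOL side the nearest members lay 532, 539 and 555 bp from an iOL peak, with 7, 9 and 7 tags in OLP A and scores of 44.0, 54.9 and 43.8. The nearest peaks left out lay 485, 480 and 471 bp from one, with 11, 8 and 8 tags and scores of 58.5, 88.6 and 51.2. On this side the peaks left out had mostly the higher values, in 2 of 3 cases above the scores of all 3 of these nearest members. In all, 441 of the 506 members (87.2%) shared at least 1 base with their OLP B peak.

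No iOL peak was allowed within 500 bp, and beyond that limit iOL peaks were often near. The nearest iOL A peak lay at a median of 42.9 kb from a member and the nearest iOL B peak at 80.9 kb. With both iOL lists together, 91 members (18.0%, 95% interval 14.9 to 21.6) had an iOL peak within 2 kb and 174 (34.4%, 30.4 to 38.6) within 10 kb. Among the 5614 OLP A peaks found in no other sample, which meet the same iOL limit, these shares were 8.09% (7.40 to 8.83) and 22.0% (20.9 to 23.1). The members thus had nearby iOL peaks more often, by intervals that do not overlap and cover counting error only. Examples are the members listed to the vomeronasal receptor gene Vmn1r168 and the sterol demethylase gene Cyp51. They lay 40809 and 43748 bp upstream of these genes, and the start of Vmn1r167 was nearer to the first, at 5680 bp. The Vmn1r168 member lay 583 bp from an iOL A peak and 652 bp from an iOL B peak, and the Cyp51 member lay 767 and 707 bp from them.

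**Figure D3:**
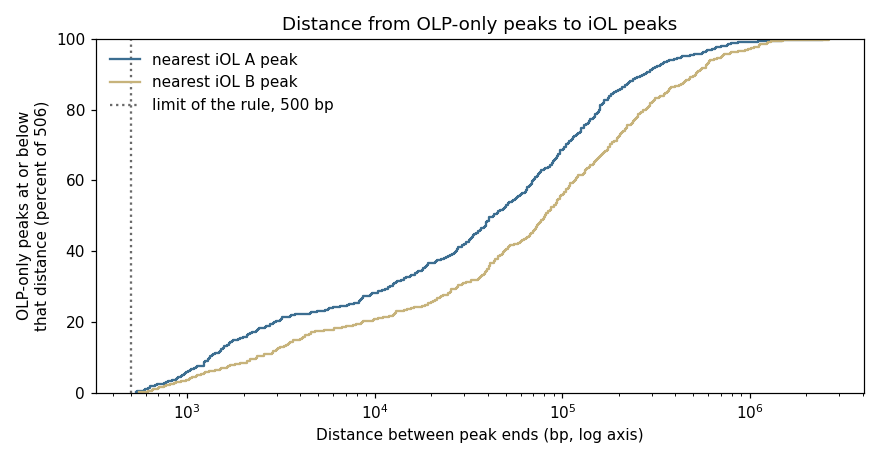
Cumulative share of the 506 members (y axis, percent) by the distance to the nearest peak of iOL A and of iOL B (x axis, bp, log axis), with the 500 bp limit dotted. The curve for iOL A lies to the left of that for iOL B, with medians of 42.9 and 80.9 kb.

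The repeated nature of the members was shared with other reproducible peaks and was far above that of the genome. It was 98.3% (97.6 to 98.8) for OLP A peaks found in all 4 samples and 98.0% (95.9 to 99.0) for peaks found in both iOL samples only. OLP A peaks found in no other sample reached 78.0% (76.9 to 79.1) and all OLP A peaks 87.3%. On a regular grid of 11938 stretches of 150 bases, 1 every 200 kb of the same chromosomes, the share was 14.3% (13.7 to 14.97). With stretches of 50 bases it was 92.9% for members against 9.91% for the grid. In 360 members (71.1%) every 32-base stretch was repeated. Without OLP A it was 52.9%, over the 3995 OLP B peaks with no iOL partner, and without OLP B 79.7%, over 6120 OLP A peaks.

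Copy number differed between the sets. The median 32-base stretch of a member occurred 292 times in the genome (95% interval of the median 141 to 564.5), against 2198.5 times (1945 to 2507) for peaks in all 4 samples and 55 times (48.5 to 61) for peaks in no other sample. Tags moved with copy number, so the sets were also set side by side at equal tags. At 8 to 9 tags in OLP A the medians were 480 copies (219 to 1691.5) for 206 members, 914.5 (352 to 1557.5) for the peaks in all 4 samples and 83.2 (73 to 98) for the peaks in no other sample. At these tags the intervals of members and all-sample peaks overlapped. At 7 tags they did not, with 97 copies (69 to 228) against 1098.8 (280 to 2591). No test was run on these sets, so nothing here is called particular to the members.

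**Figure D4:**
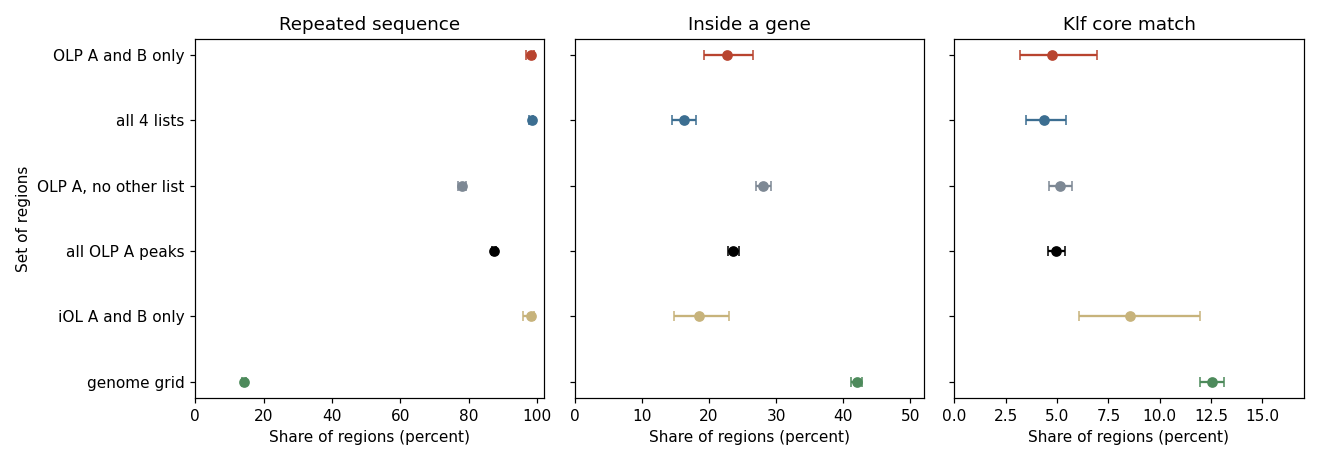
Share of regions (x axis, percent, points with 95% Wilson intervals) that are repeated, lie inside a gene or hold a Klf core match within 100 bases of the summit, for the members, 4 other sets of peaks and a regular grid of the genome. Peak sets lie at 78.0 to 98.3% repeated against 14.3% of the grid, and below the grid for genes and for the Klf core.

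Other copies of the same sequence were called as peaks in iOL. For this the 50 bases at each summit were looked up, and the 417 members whose stretch had 2 to 100 copies (median 10) were kept, leaving out each member's own copy. Another copy lay inside an iOL A peak for 260 of the 417 (62.4%, 57.6 to 66.9) and inside an iOL B peak for 186 (44.6%, 39.9 to 49.4). In either iOL sample it was 277 (66.4%, 61.8 to 70.8), between the 41.7% (40.0 to 43.5) of OLP A peaks found in no other sample and the 93.4% (92.0 to 94.6) of those found in all 4. Within the OLP lists another copy was in a peak for 317 (76.0%) in OLP A and 283 (67.9%) in OLP B. Counted by copies, 25.3% of the 5291 other copies lay in an OLP A peak, 21.5% in OLP B, 17.5% in iOL A and 9.19% in iOL B. Of these other copies 235 (4.44%) were themselves in another member. Without such copies the shares in the OLP lists were 20.9% in OLP A and 17.6% in OLP B, against the same 17.5% in iOL A and 9.19% in iOL B. For the mirror set of peaks found in both iOL samples only, with copies in other such peaks included, the shares were 28.4% in iOL A, 20.2% in iOL B, 27.1% in OLP A and 12.8% in OLP B. Copies in several peaks of a list are not independent, and how the aligner placed reads that fit several copies is not given in the sources used here. Its part in which copy was called was not tested.

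**Figure D5:**
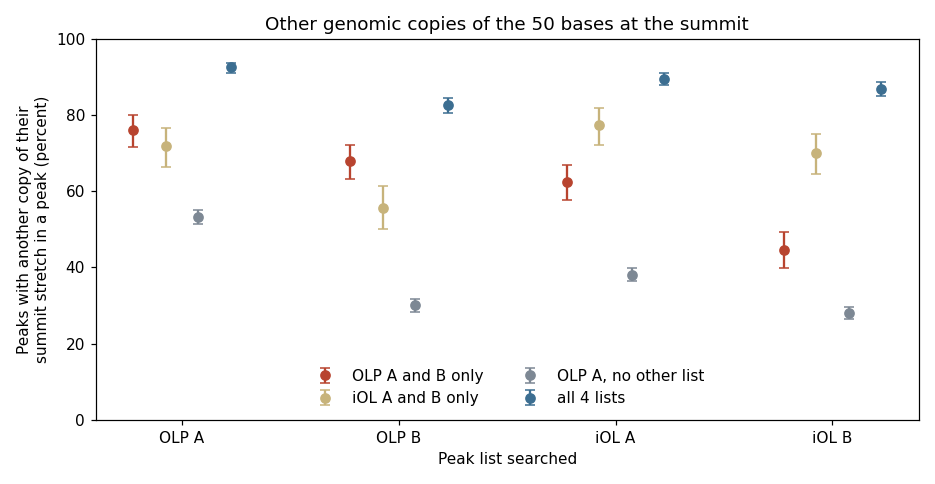
Share of peaks (y axis, percent, with 95% Wilson intervals) for which another genomic copy of the 50 bases at the summit lies in a peak of the list on the x axis, for 4 sets of peaks with 2 to 100 copies. For the members the share falls from 76.0% in OLP A to 44.6% in iOL B, and for peaks of all 4 samples it stays between 82.6 and 92.5%.

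The members also shared sequence with each other. A 32-base stretch was common to at least 1 other member in 439 of 506 (86.8%). Joined through such stretches, the largest group held 333 members (65.8%) and the next 69 (13.6%), while 67 members (13.2%) joined none. These counts were not made for any other set of peaks, and 87.3% of all OLP A peaks were repeated sequence. They are therefore not read as particular to the members. No 1 stretch was common to most of the members. The most frequent lay in 14 members and occurred 16619 times in the genome.
Most frequent stretch of the members: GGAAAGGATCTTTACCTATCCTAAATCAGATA
It was found in 103 OLP A peaks, 81 OLP B peaks, 68 iOL A peaks and 43 iOL B peaks over all chromosomes. As a share of each list these were 0.827%, 1.03%, 0.665% and 0.744%.

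Like all OLP A peaks together, the members were poorer than the grid in G and C and in the core letters of Klf sites. Their median GC content was 37.8% (95% interval 37.3 to 38.3), against 37.9% for all OLP A peaks. It was 37.7% for peaks in all 4 samples, 39.1% (38.6 to 39.9) for peaks of both iOL samples only and 42.0% for the grid. CCACCC (the CACCC box) or CCGCCC (the GC box), on either strand and within 100 bases of the summit, was found in 24 members (4.74%, 3.21 to 6.96). All 24 held CCACCC, and CCGCCC was in 0 of 506, which allows a share of up to 0.754% by the Wilson interval. CCGCCC was also rare among all OLP A peaks (0.482%) and among those in all 4 samples (0.239%). Among all OLP A peaks 4.95% had either core, and on the grid 12.5% (11.9 to 13.1) of windows of the same length did. In the mirror set of iOL peaks 8.57% (6.07 to 11.97) had one. A match is only letters in a window, and its absence says nothing of binding by Klf6. In 239 members (47.2%, 42.9 to 51.6) there was no CpG, against 41.5% (40.6 to 42.5) of all OLP A peaks, 45.5% (44.2 to 46.8) of those in no other sample and 31.9% (29.7 to 34.2) of those in all 4. At 10 to 13 tags in OLP A the members (34.7%) and the peaks in all 4 samples (34.4%) had nearly the same share. At fewer tags the members had the larger share. It was 51.5% (44.7 to 58.2) against 33.3% (27.9 to 39.2) at 8 to 9 tags. At 7 tags it was 52.6% (44.8 to 60.2) against 42.1% (33.4 to 51.3), intervals that overlap.

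Most members were far from genes. The deposited lists name a start site from 50 kb upstream, and 98 of the 506 members (19.4%, 16.2 to 23.0) had one, against 23.0% of all OLP A peaks. Of these 98, 93 lay upstream of the start site. The listed distances reach 50 kb upstream but only 5 kb downstream, so the range of the lists itself favours upstream positions. In the window from -15 to +5 kb, which is the promoter window of the study, there were 36 members (7.11%, 5.18 to 9.69) at 33 genes, against 9.06% (8.54 to 9.62) of all OLP A peaks and 7.71% of the iOL mirror set. Without OLP B the share was 10.7%, over the 6120 OLP A peaks with no iOL partner. Within 2 kb of a start site there were 6 members (1.19%), and the share was 1.07% of all OLP A peaks. By the GENCODE annotation, 115 members (22.7%, 19.3 to 26.6) had their summit inside a gene, 106 of them inside a protein-coding gene. All OLP A peaks gave nearly the same share, 23.6% (22.8 to 24.4), peaks in no other sample 28.1% (26.9 to 29.3), peaks in all 4 samples 16.2% (14.5 to 18.1) and the grid 42.0% (41.1 to 42.9). Only 2 summits lay in an exon, at Sprr2a1 and at the transcript Gm15218, and 0 lay in coding sequence.

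The 6 members near a start site were at genes with little in common. The nearest was 140 bp upstream of Vmn1r2, a vomeronasal pheromone receptor gene, with 12 tags in OLP A and 15 in OLP B. The next was 565 bp downstream of the start of Padi4, which encodes an enzyme that converts arginine to citrulline in histones, with 8 and 14 tags and scores of 44.3 and 53.5. The others lay 738 bp upstream of Gm10408, 1213 bp downstream of the 1700047L14Rik start, 1220 bp inside Rdh9, a retinol dehydrogenase gene, and 1637 bp upstream of Gm4133. Padi4 was the only 1 of the 6 without repeated stretches, and every 32-base stretch of the other 5 was repeated. The best supported of the 6 by its smaller score was that of 1700047L14Rik, with 124.6 in OLP A and 54.4 in OLP B.

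The 10 best supported members with a gene were spread over genes of different kinds. All lay upstream of the start site, the side on which the lists reach farther. Vmn1r121, another vomeronasal receptor, led with 14 tags and a score of 95.1 in OLP A and 16 tags and 120.5 in OLP B, 14067 bp upstream. Fmo4, a flavin monooxygenase gene, followed with 12 and 26 tags and scores of 82.5 and 149.7, 12443 bp upstream. Ear2, which encodes an eosinophil ribonuclease, had 12 and 14 tags 36625 bp upstream. Pla2g4a, the gene of cytosolic phospholipase A2, had 9 and 11 tags 37993 bp upstream. The peak 8928 bp upstream of Neat1, the long noncoding RNA that builds paraspeckles, lay inside the neighbouring gene Frmd8 and had 7 tags in OLP A and 18 in OLP B. It was richer in GC (55.4%) than most members. Nlrp5, an oocyte gene, had 12 and 15 tags 5771 bp upstream, and Met, the hepatocyte growth factor receptor, had 9 and 14 tags 26751 bp upstream. The others of the 10 were Olfr1305, Vmn1r168 and Olfr1136. Of these 10 genes, 4 encode chemosensory receptors, which bind odorants or pheromones in the nose. Among all OLP A peaks with a gene, olfactory receptors made up 8.84% and vomeronasal receptors 7.03%. The 10 were picked by score and are too few to compare with these shares.

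Chemosensory receptor families made up the largest gene groups. Olfactory receptors accounted for 10 of the 98 members with a gene (10.2%), at 9 genes, against 8.84% of all OLP A peaks with a gene. Vomeronasal receptors accounted for 9 (9.18%) at 8 genes, against 7.03%. The 2 best supported olfactory members were those of Olfr1305, with 9 and 15 tags, and Olfr1136, with 9 and 15 tags. Predicted genes named Gm gave 8 members (8.16% against 9.21%). Since 219, 174 and 228 OLP A peaks in all carried these names, the members took 4.57%, 5.17% and 3.51% of them, near the background of 4.69%. In these clusters genes have near-identical copies, so which copy a peak belongs to is uncertain.

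Genes of the oligodendrocyte lineage had few OLP A peaks listed to them. Among so few, at the background of 4.69%, an absence of members cannot be read as a result about the members. None of 38 lineage transcription factors, 37 myelin genes, 39 genes of the gp130-Jak-Stat pathway, 23 thyroid hormone pathway genes, 26 Klf and Sp factors or 26 importins and exportins had a member listed to it, and few had any OLP A peak (2, 1, 3, 1, 3 and 0 peaks in that order). Among 26 genes of the OLP membrane and matrix, 1 had a member listed to it, out of 2 OLP A peaks that were both at that gene, and a second, Pcdh15, held 1 member inside it, out of 21 OLP A peaks inside genes of the list. The first was Sema5a, a semaphorin guidance protein, with 7 tags in OLP A and 10 in OLP B, 34012 bp upstream of the start, and scores of 48.5 and 41.3. The same sequence was common, as the median 32-base stretch of the Sema5a peak occurred 10564 times.

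A list of 263 genes was taken from the RNA-seq of Klf6-silenced cells. Of these genes 2 had a member, out of 25 OLP A peaks at 19 genes of the list (8.0%). Rnf19b, an E3 ubiquitin ligase, had 7 and 16 tags with scores of 100.3 and 61.5, and the peak lay 43179 bp upstream. Adamts1, a metalloprotease of the extracellular matrix, had 8 and 9 tags with scores of 55.5 and 55.6, 46923 bp upstream. Both lay far outside the -15 to +5 kb window. A list of 20 genes drawn from RNA-seq and ChIP-seq together was made partly on these samples and so is not independent. None of its genes had a member, and 11 OLP A peaks lay at 9 of them, too few to be read against the background of 4.69%.

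In the other gene families 1 or 2 members each were found, too few to be read against the background of 4.69%. They were 1 of 39 OLP A peaks at solute carrier genes (2.56%), 2 of 17 at protease inhibitors (11.8%), 1 of 36 at cytochrome P450 and conjugation genes (2.78%), 1 of 34 at defensins, lectins and histocompatibility genes (2.94%) and 1 of 14 at microRNA genes (7.14%). Slc38a1, a glutamine transporter, had 9 and 12 tags 11413 bp upstream, with no 32-base stretch in any iOL peak. Serpinb7 and Stfa1, both protease inhibitors, had 7 and 16 tags and 11 and 9 tags. Cyp51, of sterol synthesis, had 15 and 17 tags 43748 bp upstream, Clec14a, an endothelial lectin, had 10 and 10 tags, and the microRNA gene Mir879 had 11 and 11 tags. No member was listed to a Zfp zinc finger gene, an ion channel or transmitter receptor, or a homeobox, Fox, Sox, Pou or Tbx gene. These groups had 50, 34 and 5 OLP A peaks, again too few for an absence to be read against the background of 4.69%. Inside genes, as opposed to near their start sites, neural adhesion genes did occur. By a count made after the positions were seen, 6 members lay inside such genes (2 in Cntnap5c and 1 each in Cntnap5a, Cntnap2, Pcdh15 and Cdh6). All OLP A peaks inside this family numbered 114. The Cntnap5a member, in a contactin-associated protein gene, had 8 tags in OLP A and 18 in OLP B.

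Several members came in groups at 1 locus. Ralyl, which encodes an RNA-binding protein, held 3 members with 7 to 9 tags in OLP A and 11 to 15 in OLP B. Upstream of Ctsc, the cathepsin C gene, 3 OLP A peaks of 13, 9 and 11 tags lay 11109, 11333 and 11517 bp from the start and matched the same OLP B peak of 22 tags, so they are not independent sites. In all, 23 members (4.55%) shared their OLP B peak with another member. Elsewhere members were sparse, with a median of 964 kb between a member and the next. They ran from 0.0903 per Mb on chromosome 11 to 0.334 per Mb on chromosome 4. As a share of each chromosome's OLP A peaks they made up between 3.12% (1.44 to 6.65) on chromosome 19 and 6.05% (4.64 to 7.84) on chromosome 4, intervals that overlap.

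Binding calls for the same gene were present in iOL at another position for some genes. Of the 91 different genes listed to a member, 35 (38.5%, 29.1 to 48.7) were also listed to an iOL peak elsewhere, 31 to an iOL A peak and 20 to an iOL B peak. For the 1269 genes of OLP A peaks found in no other sample the share was 27.3% (24.9 to 29.8), and the intervals overlap at their edges. For the 1927 genes of all OLP A peaks, many of which have an iOL peak at the same position, it was 49.5%.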

How the data were processed

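Klf6 ChIP-seq was performed in 2 replicates each of OLP and iOL, with 4 inputs. By the study's methods, reads of sufficient quality were mapped by the authors to the mm9 assembly (Bowtie2). Each ChIP library was compared with its input by MACS, and RefSeq gave the gene and start site of a peak. CASAVA 1.8 is named in the submitters' processing notes. The MACS version, the read length, the number of aligned reads and the handling of reads that align to several places are not given in the sources used here, so the depth is known only through tags in peaks. The deposited lists give the tag count of each peak as raw, not normalized between samples. The score that the authors' peak caller wrote is 10 times the negative log10 of p. Fold enrichment is a ratio of tags over the background expected by MACS, as deposited. The FDR in the deposited lists is in percent.

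From these lists peaks were matched by position with a gap of at most 500 bp, the gap of the study's methods. Sequence came from NCBIM37, the same build as mm9, and gene positions from GENCODE vM1. Shares have 95% Wilson intervals and medians order-statistic intervals, which cover counting error only. No test was run over peaks, since calls chose the members. The members, the gene lists and the motif letters were chosen with earlier results of these data known. The genome grid, the comparison at equal tags, the other copies at summits and the stretches shared with iOL peaks or between members were added after the data were seen. Named peaks are the 10 with a gene and the largest smaller score of OLP A and OLP B, those within 2 kb of a start site, those of the listed genes, 2 per gene family and the 5 with the largest smaller score. On simulated data 72 of 72 planted members among 400 peaks and 50 of 50 planted repeats among 100 peaks were recovered. The software was pandas 2.3.3 and numpy 2.4.6 for tables, numba 0.67.0 for the stretches, scipy 1.17.1 for intervals and matplotlib 3.10.9 for plots, under Python 3.11.15.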

Additional observations from a re-analysis of the deposited data

Results flagged for a closer look

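On the chromosomes that the selection leaves out, 85 further OLP A peaks were called in OLP B and in no iOL sample, and they enter none of the values above. Of these, 82 lay on chromosome X, among 1613 OLP A peaks there (5.08%, 95% interval 4.11 to 6.27), and 3 on chromosome Y, among 57 (5.26%). The share was close to the 4.69% of chromosomes 1 to 19. Of the 82 on chromosome X, 81 were repeated sequence and 11 had a gene listed, among them Dmd and Chm.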

How the results depend on the processing

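Pairing by replicate letter, added after the data were seen and without a test, set OLP A against iOL A and OLP B against iOL B (a replicate block). It left 504 peaks, all among the 506. The rule already required that neither iOL sample had a peak within 500 bp, so this number was largely set in advance. It cannot show whether the letter marks a batch. The number of members rested on the limits of calling: it was 243 with at least 10 tags in every list, 311 with a score of at least 50 and 17 with repeated peaks left out of every list, of which 8 are among the 506. With at least 1 shared base or a gap of up to 1000 bp it was 474 and 522. Leaving out each sample in turn gave 781 (without iOL B) to 6120 peaks. Without OLP B, 6120 OLP A peaks had no iOL partner. Without OLP A, 3995 OLP B peaks had none, and without iOL A the number was 1016. Over these 4 settings the share in the -15 to +5 kb window ran from 6.594 to 10.69%, the share inside a gene from 20.96 to 31.46%, the repeated share from 52.89 (without OLP A) to 97.93%, and the median GC content from 35.03 to 38.02%. The repeated share was 92.89% with stretches of 50 bases and 99.68% at a score of at least 50. The window of -5 to +5 kb held 2.174%, the Klf core lay within 50 bases of the summit in 2.569%, and the median GC content was 37.2% at 10 tags or more. The other 43 of 62 alternatives stayed within 1.5 times for counts or inside the interval for shares and medians. A region without an iOL call may still have held iOL tags below the calling limit, which the lists do not show.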
